A study of Oryza sativa with 6 samples.

Results

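The distal long arm of rice chromosome 11 was described by its ChIP-seq peaks, that is, by all peaks of 6 histone modifications whose midpoint lay at 20 Mb or further along chromosome 11, up to the last peak end at 29019661. These were 1836 of 82347 peaks, chosen by position, and the position itself was picked with earlier results on peak numbers and overlap in these same lists known. The densities and overlaps below are therefore a description of a chosen region. They comprised 518 H3K4ac, 540 H3K9ac, 187 H3K27ac, 407 H3K27me3, 109 H3K9me1 and 75 H3K9me3 peaks. Chromatin came from leaves of Nipponbare rice, taken from 2-week-old seedlings raised in a greenhouse, and each of the 6 antibodies gave 1 library and 1 deposited list of peaks. No group differs from another in genotype, treatment or age. The lists name no genome build, so positions are given as listed, counted from 1. Genes and base sequences at these positions were not analysed here, and that the region is the long arm was taken from its position.

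H3K27me3 is the mark of Polycomb repressive complexes, and in plants it lies over genes that are silent in the tissue studied, often as a domain that spans the gene. Acetylation of H3K4, H3K9 and H3K27 marks nucleosomes near the starts of transcribed genes and neutralizes the charge of the lysine. H3K27 can carry either an acetyl or a methyl group on 1 tail, but not both. H3K9me1 is known from the heterochromatin of Arabidopsis, where H3K9me3 has been found in euchromatin as well. The long arm of rice chromosome 11 is known for its clusters of disease resistance genes.

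The question was how density, width and overlap of the peaks, above all of H3K27me3 and the acetylation marks, compare between this arm and the last 9 Mb before the last peak of each of the other 11 chromosomes, which held 25795 peaks. With 1 library for each mark, and with neighbouring peaks of a library not being replicates, no test was made and no p-value is given. Each value of the arm is set beside the range of the other 11 ends. The 95% Wilson intervals cover counting error only, and the read depth behind the lists is unknown.

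The distal arm of chromosome 11 had the most H3K27me3 peaks and the fewest acetylation peaks per Mb of all 12 ends. H3K27me3 had 45.1 peaks per Mb on the arm, against 32.2 (chromosome 3) to 42.1 (chromosome 8) at the other ends, with a median of 38.8. The ratio to that median was 1.16 (interval 1.06 to 1.28). H3K9ac had 59.9 peaks per Mb, against 63.1 (chromosome 12) to 97.7 (chromosome 3) and a median of 90.6, a ratio of 0.661 (0.608 to 0.719). H3K4ac had 57.4 peaks per Mb, against 58.3 to 96.2 (chromosomes 12 and 3) and a median of 84.3, a ratio of 0.681 (0.625 to 0.742). For H3K27ac the density was 20.7 peaks per Mb, against 24.0 (chromosome 12) to 36.4 (chromosome 1) and a median of 31.2, a ratio of 0.664 (0.576 to 0.765). The 3 acetylation marks were thus lower by a like ratio, and the end of chromosome 12 was their nearest neighbour in each case. It had 525 H3K4ac and 568 H3K9ac peaks, against 518 and 540 on the arm. Chromosome 8 had 379 H3K27me3 peaks, against 407. The intervals concern the ratio to the median, and none was computed for the gap to the nearest end. The arm's extreme ranks are therefore not shown to exceed counting error. Set against each other, there were 0.754 H3K27me3 peaks for each H3K9ac peak on the arm, against 0.330 (chromosome 3) to 0.662 (chromosome 12) at the other ends. For each H3K27ac peak there were 2.18 H3K27me3 peaks, against 0.884 to 1.74. With only the 2959 highest-scoring peaks of each list, the arm no longer stood apart in 3 of these marks. The ratio was then 0.986 (0.795 to 1.22) for H3K27me3, 0.884 (0.691 to 1.129) for H3K4ac and 0.843 (0.656 to 1.08) for H3K9ac, while H3K27ac, at 0.526 (0.398 to 0.696), was still below all other ends. With a minimum score of 100 all 4 densities stayed outside the range of the other ends, H3K27me3 at a ratio of 1.14.

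**Figure D1:**
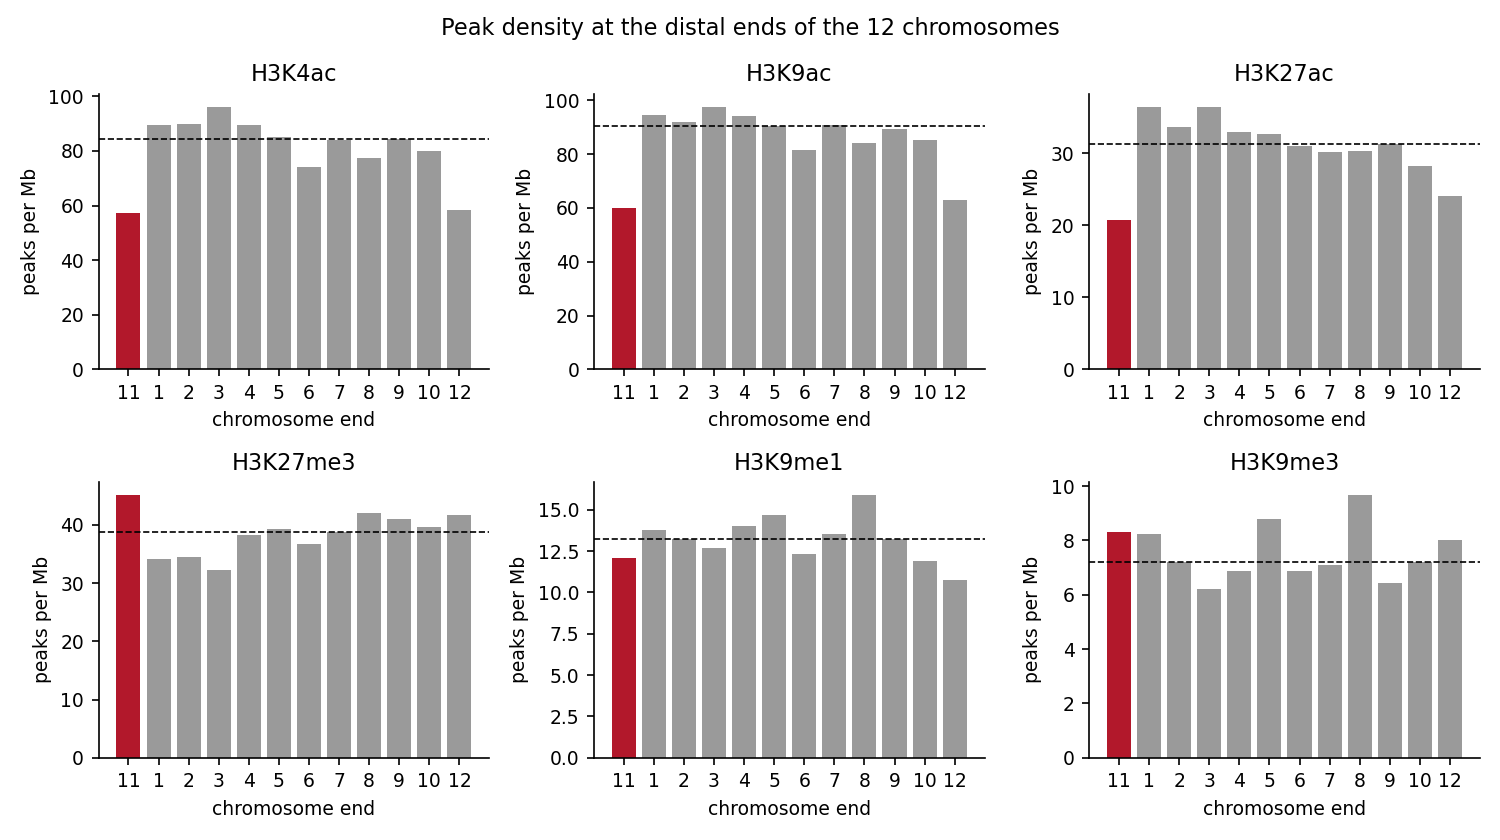
Peaks per Mb of each mark (vertical axes) at the distal end of chromosome 11 (red, left) and in the last 9 Mb of each other chromosome (grey), with the median of the other 11 ends as a dashed line; each bar is 1 library's count. The red bar is the highest for H3K27me3 (45.1) and the lowest for H3K4ac (57.4), H3K9ac (59.9) and H3K27ac (20.7), while H3K9me1 (12.1) and H3K9me3 (8.32) stand among the other ends.

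In the full lists, the methylation marks of H3K9 did not stand apart by density. H3K9me1 had 12.1 peaks per Mb on the arm, against 10.8 to 15.9 at the other ends, and H3K9me3 had 8.32, against 6.22 to 9.67. Both values fell inside the range of the other ends. The H3K9me1 peaks of the arm were, however, low in their list. A score of at least 100 was reached by 11% of these 109 peaks, against 13.9% (chromosome 7) to 31.6% (chromosome 3) at the other ends. No interval was computed for this share, so whether counting error covers the gap to the nearest ends is not known. The score is the peak caller's own value, with a lowest value of 50 in the lists.

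By covered length in the full lists, H3K27me3 and the 3 acetylation marks had ratios further from 1 than by peak number. H3K4ac and H3K9ac, however, were no longer lowest on the arm. H3K4ac covered 7.42% of the arm, against 7.17% at the end of chromosome 12, and H3K9ac 5.75%, against 5.63%. H3K27me3 peaks covered 9.19% of the arm, against 6.39% to 9.08% at the other ends, the highest of these at chromosome 12. Any of the 3 acetylation marks covered 8.37% of the arm, against 8.21% (chromosome 12) to 14.2% (chromosome 3), with a median of 12.8%. The arm and the end of chromosome 12 were thus close to each other in the cover of H3K27me3 and of acetylation as a whole. H3K27ac covered 2.05% of the arm, against 2.49% to 4.39%, and was the acetylation mark whose covered share lay below all other ends in the full lists. Peaks of any mark covered 19.0% of the arm, against 19.1% to 22.7%.

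In the full lists, H3K27ac was the mark whose median width on the arm lay outside the range of the other ends. Its peaks had a median width of 915 bp on the arm (854 to 954 bp, a distribution-free 95% interval), against medians of 937 bp (chromosome 12) to 1086 bp (chromosome 2) at the other ends. H3K9ac peaks had a median of 878 bp, against 841 to 960 bp, and H3K4ac peaks 1161 bp, against 1139 to 1228 bp. Both lay inside the range of the other ends. With a minimum score of 100, however, the H3K4ac median of 1207.5 bp was also below the other ends (1209 to 1323.5 bp), and so it was among the 2959 highest-scoring peaks (1357 bp, against 1388 to 1751 bp). H3K27me3 peaks had a median of 1464 bp (1300 to 1670 bp), against 1447 to 1697 bp. In the full lists the larger covered share thus came with more peaks and not with a larger median width. Among the 2959 highest-scoring peaks, however, the H3K27me3 median was 3051 bp, against 2263 to 2703 bp, above all other ends. Its ratio of 1.203 had an interval of 0.936 to 1.426. In the last 5 Mb of every chromosome it was 1717.5 bp, against 1322 to 1778 bp. The spread of H3K27me3 widths was broad. Of the 407 peaks, 28.3% were narrower than 1 kb, against 21.9% to 33.1% at the other ends, and 21.6% were at least 3 kb wide, against 15.4% to 21.8%. The widest measured 7669 bp, against widest peaks of 7451 to 8888 bp at the other ends. H3K9me1 and H3K9me3 medians, at 687 bp and 2194 bp, were inside the ranges of 618.5 to 694.5 bp and 2107.5 to 2819 bp.

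The low number of acetylation peaks ran along the whole arm. In 9 bins of 1 Mb counted back from the chromosome end, H3K9ac had 70, 62, 48, 41, 54, 78, 58, 58 and 68 peaks. Each of these was below the first quartile of the 99 bins of the other ends, which was 79.5, and the median of those bins was 89.0. H3K4ac ranged over 43 to 73 peaks per bin, with a first quartile of 75 in the other bins, and H3K27ac over 9 to 26, with a first quartile of 26.5. Such a low run was not particular to the arm. The bins of chromosome 12, counted in the same way, held 83, 87, 59, 65, 65, 47, 57, 53 and 52 H3K9ac peaks. From 2 Mb inward these too were below 79.5. In the 9 bins of the arm H3K27me3 had 48, 36, 45, 46, 59, 43, 51, 45 and 34 peaks, above the median of the other bins (38.0) in 7 of 9. The bin between 4 and 5 Mb from the end held the most H3K27me3 peaks and the bin between 8 and 9 Mb the fewest. H3K27me3 peaks outnumbered H3K9ac peaks in 2 of the 9 bins, 46 to 41 between 3 and 4 Mb from the end and 59 to 54 between 4 and 5 Mb. At the other ends that was the case in 1 of 99 bins, at chromosome 12 between 5 and 6 Mb from the end, where the counts were 50 and 47.

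**Figure D2:**
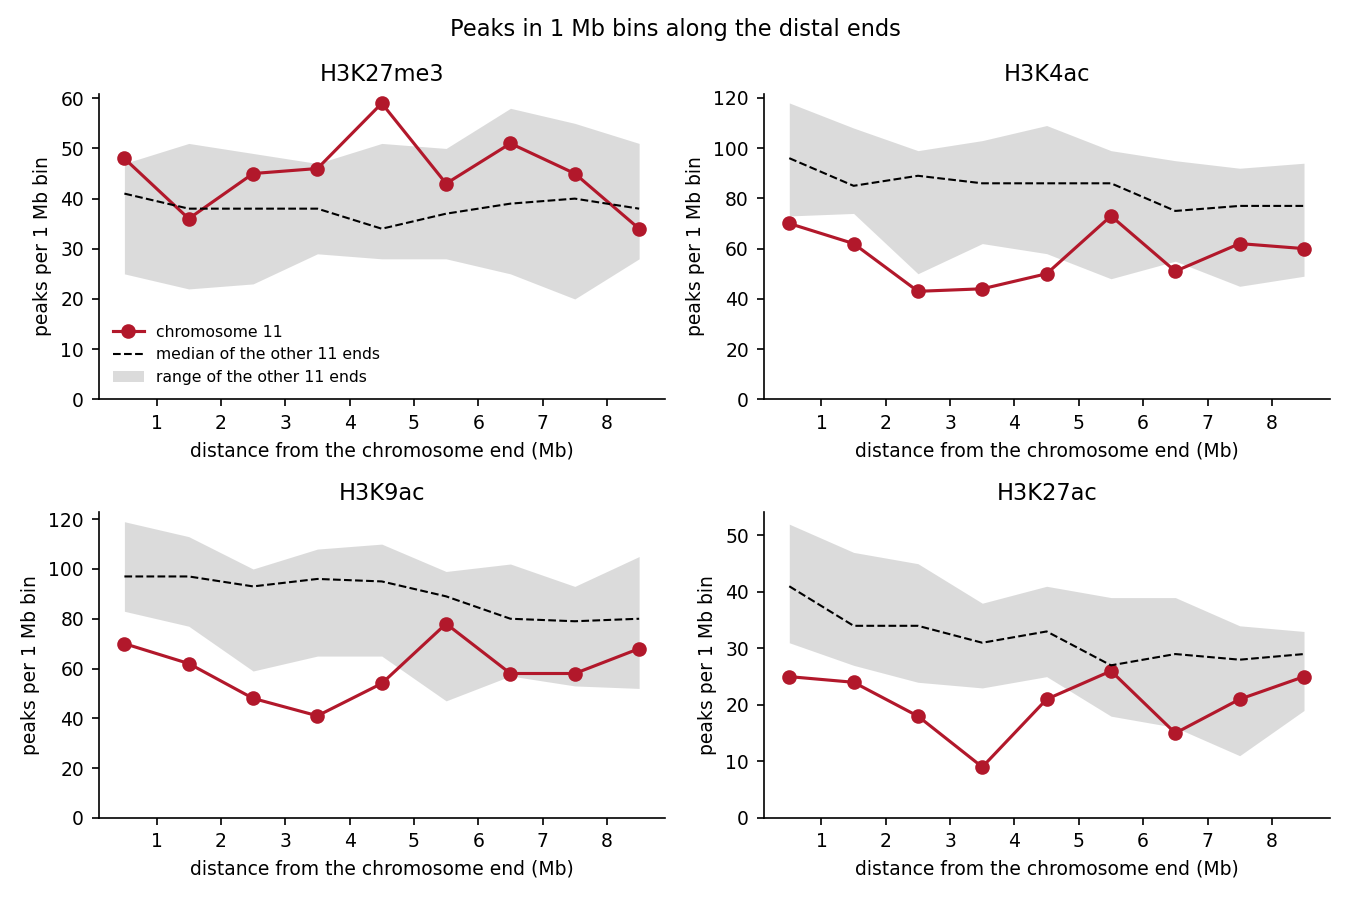
Peaks per 1 Mb bin (vertical axes) by distance from the chromosome end (horizontal axes, Mb) for chromosome 11 (red points), with the median (dashed) and the range (grey band) of the other 11 ends. The red points lie below the dashed line in all 9 bins for H3K4ac, H3K9ac and H3K27ac, and reach 59 H3K27me3 peaks in the bin at 4 to 5 Mb.

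The bin nearest the chromosome end had the highest median width of H3K27me3 peaks among the 9 bins, 2304 bp. These peaks covered 120 kb, and the bin held 70 H3K4ac, 70 H3K9ac and 19 H3K9me1 peaks. The bin 4 to 5 Mb from the end covered slightly more with H3K27me3, 128 kb, by more and narrower peaks (median 1721 bp). The least covered bin, 8 to 9 Mb from the end, had 54.0 kb under H3K27me3 peaks with a median width of 1143 bp. The limit at 20 Mb does not mark a step in every list. The first Mb inside it held 34 H3K27me3, 71 H3K9ac, 63 H3K4ac and 28 H3K27ac peaks, and the last Mb outside it 65, 66, 60 and 17 of the same marks. The last Mb outside thus had more H3K27me3 peaks than any bin of the arm, where the highest count was 59. A high number of H3K27me3 peaks was therefore not confined to the arm. The innermost member was an H3K9ac peak from 20004788 to 20005664, and the nearest peak left out was an H3K9ac peak from 19996406 to 19997179.

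In the full lists, a larger share of the acetylation peaks lay on H3K27me3 than at any of the other ends. Over the whole lists, 12.3% of H3K9ac, 11.2% of H3K4ac and 8.21% of H3K27ac peaks overlapped an H3K27me3 peak by at least 1 bp. On the arm the share was 16.9% for H3K9ac, or 91 of 540 peaks (13.9 to 20.2%), against 6.83% (chromosome 3) to 13.2% (chromosome 12) at the other ends. For H3K4ac it was 16.8%, or 87 of 518 peaks (13.8 to 20.3%), against 5.08% (chromosome 3) to 11.05% (chromosome 12). For H3K27ac it was 16.6%, or 31 of 187 peaks (11.9 to 22.6%), against 1.83% (chromosome 1) to 10.6% (chromosome 12). In bases, 16.3% of the acetylated length of the arm was also under H3K27me3, against 5.32% to 11.3%. The 3 shares lay within each other's intervals on the arm. At the other ends together, 825 of 8674 H3K9ac, 670 of 8175 H3K4ac and 157 of 3121 H3K27ac peaks lay on H3K27me3. With only the 2959 highest-scoring peaks of each list, the shares fell inside the range of the other ends, at 1.61% for H3K4ac, against 0% to 2.99%, and 1.67% for H3K9ac, against 0% to 4.55%. That setting left 6.87 H3K4ac and 6.65 H3K9ac peaks per Mb on the arm. So few peaks cannot show whether the larger shares hold among them. The H3K27me3 cover of the arm was itself larger, 9.19% of its bases, and its part in these shares was not tested.

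**Figure D3:**
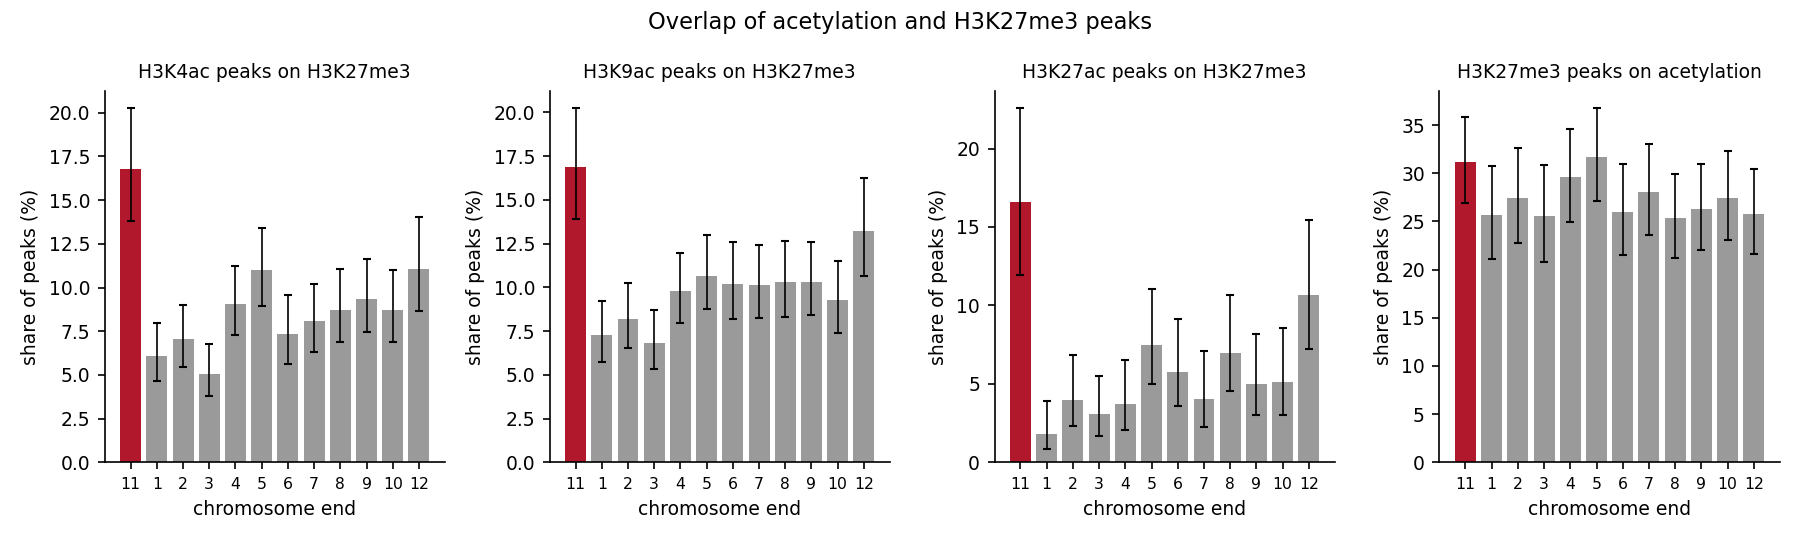
Share of the peaks of 1 mark that overlapped another by at least 1 bp (vertical axes, %) at the distal end of chromosome 11 (red, left) and at the other 11 ends (grey), with 95% Wilson intervals for counting error. The first 3 panels, acetylation peaks on H3K27me3, show the red bar highest at 16.8% (H3K4ac), 16.9% (H3K9ac) and 16.6% (H3K27ac). In the last panel, H3K27me3 peaks on any acetylation, the red bar (31.2%) is second to chromosome 5.

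Seen from H3K27me3, the overlap did not exceed the level of the whole genome. Of the 407 H3K27me3 peaks on the arm, 127 overlapped an acetylation peak, which is 31.2% (26.9 to 35.9%) and close to the 32.0% of the whole list. The other ends had 25.3% (chromosome 8) to 31.7% (chromosome 5). With H3K9ac the share was 21.4%, against 19.5% to 24.9%, and with H3K4ac 21.1%, against 14.5% to 24.9%. With H3K27ac the share was 7.62% (5.42 to 10.6%), above the 2.60% to 6.52% of the other ends, but the 6.08% of the whole list lay inside its interval. With a minimum score of 100 it was 0%, against a median of 0.741% at the other ends. A count of 0 allows up to 3 by counting error, so this 0% cannot be told from that median. H3K9me1 lay on 3 of the 407 H3K27me3 peaks, or 0.737%, against 0.840% to 4.53% at the other ends, and H3K9me3 on 9, or 2.21%, against 1.60% to 3.97%. The H3K27me3 peaks with acetylation were wider and ranked higher in their list than those without, on the arm as elsewhere. On the arm their median width was 1688 bp (1391 to 2170 bp), against 1347 bp (1245 to 1562 bp) for the 280 without, and the median score percentiles in the list were 55.6 and 40.7. At the other ends the widths were 1768 bp and 1495 bp and the percentiles 55.5 and 49.8. The 2 width intervals of the arm overlapped. Since 1 shared bp counted as overlap, a wider peak meets acetylation more readily by its length alone. The part of this in the width difference was not tested.

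The acetylation peaks on H3K27me3 stood low in their lists. The score percentile of a peak is its rank among all peaks of its list, from 0 to 100 for the highest score. On the arm, H3K9ac peaks with H3K27me3 had a median percentile of 28.7 (23.4 to 36.3), against 54.7 (49.1 to 59.5) for those without. For H3K4ac the medians were 25.2 (15.8 to 31.6) and 53.1 (48.7 to 58.4). The other ends pooled gave 27.9 against 51.8 for H3K9ac and 27.8 against 50.9 for H3K4ac, so the arm did not differ in this from the rest beyond the intervals. Of the overlapping peaks, 56 of the 91 H3K9ac peaks (61.5%) and 37 of the 87 H3K4ac peaks (42.5%) were wholly inside H3K27me3. At the other ends together 443 of 825 H3K9ac peaks (53.7%) and 230 of 670 H3K4ac peaks (34.3%) were.

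H3K27ac peaks of this arm had lower scores than those of the other ends. The median score percentile of its 187 peaks was 35.4, against 47.9 (chromosome 9) to 54.7 (chromosome 7) at the other ends and 51.1 at chromosome 12. H3K4ac (47.9) and H3K9ac (49.1) had medians inside the ranges of 46.7 to 51.8 and 47.3 to 51.4. The 156 H3K27ac peaks away from H3K27me3 had a median percentile of 39.5 (30.1 to 50.5), against 47.9 to 56.4 at the other ends. The median was thus lower without the overlapping peaks too, but its interval reached into the range of the other ends. A score of at least 100 was reached by 48 of the 187 peaks, or 25.7% (19.9 to 32.4%), against 32.0% to 38.2% at the other ends. Counted only with such peaks in every list, the density of H3K27ac on the arm was 5.32 peaks per Mb, against 8.33 to 13.1, and its ratio to the median of the other ends 0.479. H3K27ac lay on 32.4% of the H3K4ac peaks of the arm (28.5 to 36.6%), against 32.9% to 40.4%, and on 32.0% of the H3K9ac peaks (28.2 to 36.1%), against 32.2% to 38.0%. These 2 shares lay just below the other ends and within counting error of them.

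The 31 H3K27ac peaks on H3K27me3 had lower scores still. Their scores ran from 50.2 to 95.2 with a median of 61.4, so 0 of 31 reached a score of 100, which by the limit of 3 counts for a count of 0 allows a share of up to 9.68%, for counting error only. At the other ends 38 of 157 such peaks reached it. Their median percentile was 22.3 (8.65 to 35.4), against 37.1 (29.8 to 45.2) at the other ends. Of the 31, 25 were wholly inside an H3K27me3 peak, or 80.6%, against 42.7% of the 157. The higher H3K27ac share of the arm therefore rests on peaks with scores under 100, and with that minimum in all lists the median of the other ends was 2.11%. Only 48 H3K27ac peaks of the arm reached that minimum, too few for a count of 0 to be told from this median. With the minimum in all lists the H3K4ac and H3K9ac shares were 9.04% and 9.14%, against 2.97% to 6.13% and 2.70% to 5.79%, still above all other ends.

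H3K27ac peaks without either other acetylation mark also took a larger share on the arm. They were 14 of 187, or 7.49% (4.51 to 12.2%), against 0.915% (chromosome 3) to 6.02% (chromosome 12) at the other ends. The share of chromosome 12 lay inside the interval of the arm. Of these 14, 10 lay on H3K27me3. Among the 31 H3K27ac peaks on H3K27me3 the share without H3K4ac or H3K9ac was 32.3% (18.6 to 49.9%), and among the 156 others 2.56% (interval up to 6.41%). The pooled other ends showed the same order, 21.7% of 157 and 1.38% of 2964. For H3K4ac the share of the arm without other acetylation was 13.1% (10.5 to 16.3%), against 9.81% to 12.8%, within counting error of the highest of these. For H3K9ac it was 14.1%, against 10.7% to 18.4%.

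Peaks of all lists that touched were joined into sites to count the marks at each place. The arm had 1025 sites. H3K27me3 alone made up 275 of them, or 26.8% (24.2 to 29.6%), against 15.9% (chromosome 3) to 26.5% (chromosome 12) at the other ends. Acetylation alone made up 470, or 45.9% (42.8 to 48.9%), against 50.4% (chromosome 12) to 67.8% (chromosome 3). Sites with both acetylation and H3K27me3 but no H3K9 methylation numbered 118, or 11.5% (9.70 to 13.6%), against 5.30% to 8.67%. H3K9 methylation alone was found at 139 sites, or 13.6%, against 8.37% to 12.8%. The shares of sites rest on the number of acetylation sites, which was low. Per Mb, sites with H3K27me3 alone numbered 30.5, against 23.0 to 30.6, and H3K9 methylation alone 15.4, against 12 to 17.9, both inside the range. Sites with acetylation and H3K27me3 numbered 13.1 per Mb, against 7.67 to 10.7, above the other ends on this scale too. With only the 2959 highest-scoring peaks of each list they were 0.355% of sites, against 0% to 0.955%, inside the range. Shares this small cannot show whether the larger share of the arm holds among such peaks.

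**Figure D4:**
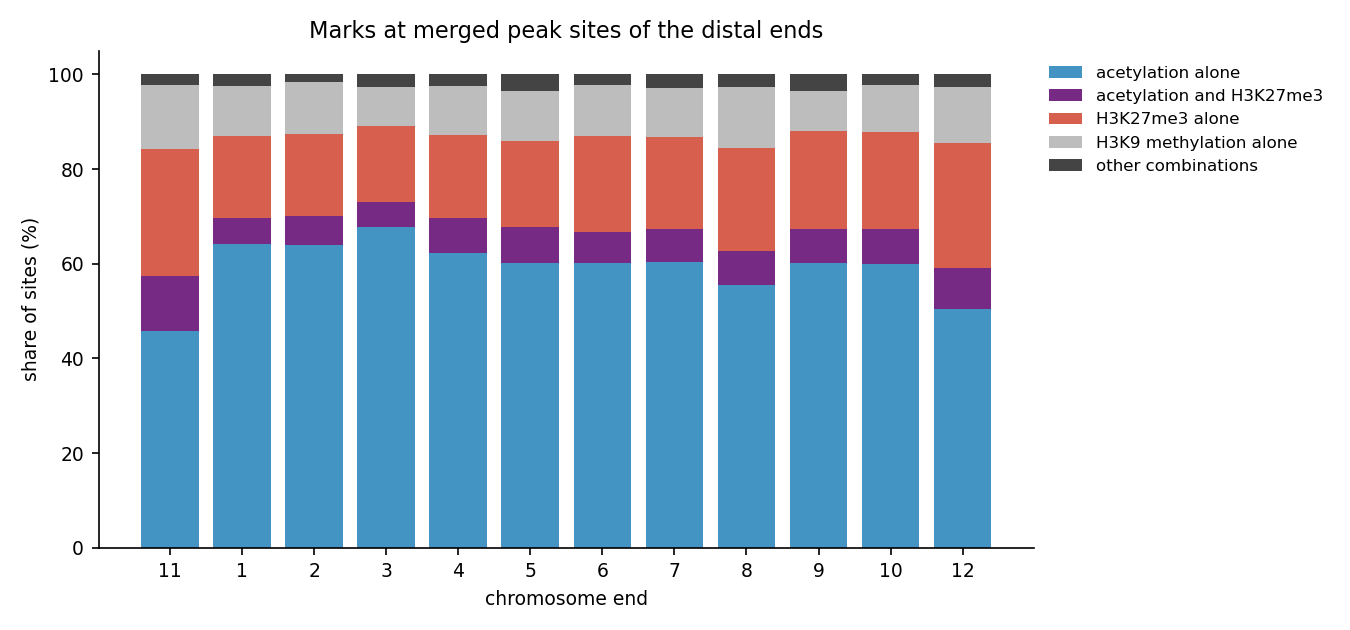
Share of sites, made of touching peaks of all 6 lists, by the marks they carry (vertical axis, %) at the distal end of chromosome 11 (left) and at the other 11 ends. On chromosome 11 acetylation alone takes 45.9%, acetylation and H3K27me3 11.5%, H3K27me3 alone 26.8% and H3K9 methylation alone 13.6%.

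Among the exact combinations, H3K4ac with H3K9ac and no other mark was the commonest acetylated kind on the arm, at 235 sites, and the 3 acetylation marks together stood at 143 sites, or 14.0%, against 17.3% to 23.6%. The mixed sites held H3K4ac, H3K9ac and H3K27me3 at 41 places, H3K9ac and H3K27me3 at 27, H3K4ac and H3K27me3 at 20, all 3 acetylation marks and H3K27me3 at 20, and H3K27ac and H3K27me3 at 8. H3K4ac with H3K27me3 was 1.95% of sites, against 0.426% to 1.27% at the other ends. No site of the arm carried all 6 marks. The whole genome had 46 such sites, and the other 11 ends together 8, with none at 5 of them. Sites with 5 marks numbered 2. One, from 20076065 to 20080222, lacked H3K9me1, and its H3K27me3 peak was the third highest-scoring of the arm. The other, from 21183302 to 21186339, lacked H3K27me3.

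Stretches without any acetylation peak were longer on the arm. Their median length was 8.36 kb, against 5.55 kb (chromosome 3) to 8.22 kb (chromosome 12) at the other ends. Stretches of at least 50 kb numbered 20 on the arm, against 1 to 18 at the other ends with a median of 4, and took up 14.3% of the arm, against 14.8% at chromosome 12 and less elsewhere. The 3 longest ran from 25009580 to 25111177 (102 kb, with 4 H3K27me3 peaks), from 20191684 to 20284589 (92.9 kb, with 4) and from 26698561 to 26773798 (75.2 kb, with 4). The longest was thus only thinly covered, its H3K27me3 peaks adding up to 2.87 kb. A larger share of H3K27me3 peaks stood in rows without acetylation. Of the 407 peaks, 103, or 25.3%, stood in a run of at least 3 H3K27me3 peaks with no acetylation between them, against 7.42% (chromosome 2) to 23.9% (chromosome 12). In the last 5 Mb of every chromosome the share was 18.8%, against 8.33% to 24.2%, so that the arm no longer stood apart. The distance between neighbouring H3K27me3 midpoints, with a median of 13.6 kb on the arm, against 12.3 to 17.6 kb at the other ends, was inside the range. Stretches and runs end at acetylation peaks, of which the arm had fewer, so both measures depend on the peak densities given above.

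The run with the most peaks lay from 22700616 to 22763420. Its 7 H3K27me3 peaks covered 14.6 kb of 62.8 kb with a median width of 1860 bp, and 1 H3K9me3 peak and no H3K9me1 peak stood among them. The next runs, with 5 peaks each, lay from 21923687 to 21993305 (7.00 kb of H3K27me3 in 69.6 kb) and from 24774032 to 24805938 (8.68 kb in 31.9 kb). At the other ends the longest run had 4 to 9 peaks.

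**Figure D5:**
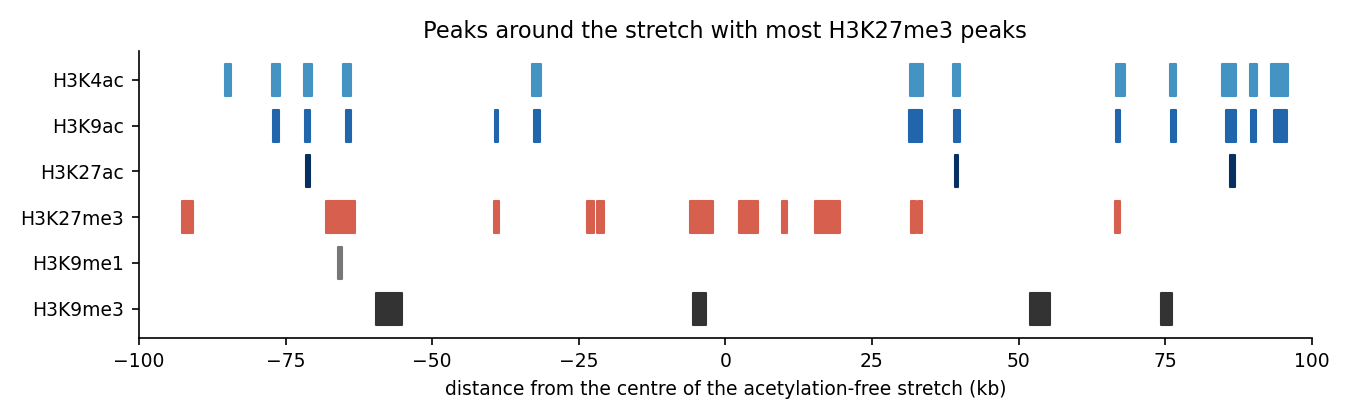
Peaks of the 6 marks within 100 kb of the centre of the acetylation-free stretch with the most H3K27me3 peaks on the arm; each block is 1 peak drawn to scale and the horizontal axis is the distance from the centre in kb. The 7 H3K27me3 peaks of the run stand in the middle, the last 2 of them so close that they appear as 1 block, and the 12 H3K4ac, 13 H3K9ac and 3 H3K27ac peaks of the window lie outside it.

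The widest H3K27me3 peak of the arm, 7669 bp from 21349545 to 21357213, ranked 5666 of 12959 by score and shared 360 bp with an H3K9ac peak. The second, 7581 bp from 27549433 to 27557013, shared 1979 bp with peaks of all 3 acetylation marks, and the third, 7456 bp from 25952961 to 25960416, carried no other mark. Width and score picked different peaks. The highest-scoring H3K27me3 peak lay from 27388993 to 27391365, ranked 62 of 12959 and overlapped no other mark. The next, from 22179113 to 22183638, ranked 94 and overlapped an H3K9me3 peak, and the third, from 20076157 to 20078752, ranked 174 and shared 1282 bp with acetylation. The H3K27me3 peak sharing most bases with acetylation, 3437 of its 4808 bp, lay from 23725031 to 23729838 and did so with H3K4ac alone. It was followed by a peak from 23818732 to 23823542, with 2656 of 4811 bp under H3K4ac and H3K9ac, and by one from 27978118 to 27980771, with 2460 of 2654 bp under the same marks.

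Strong acetylation peaks were present on the arm as well. The highest-scoring H3K9ac peak, from 23650012 to 23650651, ranked 24 of 26693, and the highest-scoring H3K4ac peak, from 27723605 to 27726243, ranked 29 of 25425. The highest-scoring H3K27ac peak, from 28903601 to 28904689, ranked 47 of 9309. None of these 3 touched H3K27me3, and each coincided with the other acetylation marks. The widest H3K9ac and H3K27ac peaks were at the same place, from 24230206 to 24233656 and from 24230120 to 24233776, and the widest H3K4ac peak lay from 24007089 to 24011080. The highest-scoring H3K9me1 peak, from 22453690 to 22455818, ranked 179 of 5002 and lay on H3K4ac, while the highest-scoring H3K9me3 peak, from 23036208 to 23038374, ranked 122 of 2959 and overlapped no other mark. The widest H3K9me1 peak (4831 bp from 28554309 to 28559139) and the widest H3K9me3 peak (6778 bp from 28014853 to 28021630) also stood apart from the other marks.

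H3K9 methylation overlapped acetylation at few peaks of the arm. Of the 109 H3K9me1 peaks, 5 overlapped an acetylation peak, or 4.59% (1.98 to 10.3%), against 2.52% (chromosome 2) to 16.8% (chromosome 9) at the other ends. Of the 75 H3K9me3 peaks, 10 did, or 13.3% (7.41 to 22.8%), against 13.9% to 27.6%. With counts this small the arm is not separated from the other ends. H3K9me1 and H3K9me3 met at 22 peaks of each list, which is 20.2% of H3K9me1, against 15.6% to 25.8%, and 29.3% of H3K9me3, against 26.4% to 43.1%.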

How the data were processed

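The members and lists were chosen with earlier results of these data known. The data are 6 libraries, 1 for each mark, and the submitters' processing notes name Bowtie, a read aligner. The authors called peaks with MACS 1.4, as the names of the lists say, and deposited for each peak a position and a score, taken here as 10 times −log10 of a p-value. The study took its gene models from the TIGR rice annotation, but the build of these lists is not named in them. Bowtie's version, settings, control library and depth are not given in the sources used here. Scores served as ranks within a list or with 1 minimum for every list.

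Peaks were assigned by midpoint to the arm (from 20 Mb) or to the last 9 Mb of the other chromosomes, whose ends were taken as the last peak end of any list. Overlap meant at least 1 bp. Sites were chains of touching peaks of all lists. Medians of the other ends are medians over 11 chromosomes. Intervals are 95% Wilson intervals, scaled to the ratio for densities, or order-statistic intervals for medians, and cover counting error only. Places named were, by a fixed rule, the widest and highest-scoring peaks, the 3 longest runs and stretches, the 3 H3K27me3 peaks with most acetylated bases, and sites with all 6 marks. Sites with 5 marks and the peaks at the 20 Mb limit were added after their values were seen. Counting was tested on simulated lists. Python 3.11.15, numpy 2.4.6, pandas 2.3.3, scipy 1.17.1 and matplotlib 3.10.9 were used. The gene table at hand is of the assembly ASM3414082v1, which could not be matched to the unnamed build of the lists, and was not used here.

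Each comparison was recomputed with a minimum score of 100, the 2959 highest-scoring peaks of each list, the last 5 Mb of every chromosome, peaks closer than 200 bp merged, whole other chromosomes, and overlaps counted only from 50% of the narrower peak. The last applies to overlaps only, and the H3K9me3 width was not computed with the minimum score, for want of peaks.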

Additional observations from a re-analysis of the deposited data

How the results depend on the processing

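Of 156 recomputed values for 30 comparisons, 91 stayed within the counting interval or spread of the reported value, 48 moved beyond it and 17 changed direction. Ratios are to the median of the other chromosomes, and differences in percentage points from it. Requiring that 50% of the narrower peak be shared left all 7 overlap values within their intervals. With the 2959 highest-scoring peaks of each list, density ratios were 0.884 (H3K4ac), 0.843 (H3K9ac), 0.526 (H3K27ac) and 0.758 (H3K9me1), and that of H3K27me3 turned to 0.986. Covered-share ratios were 0.774, 0.719, 0.415 and 0.804 for the same 4 marks. Median width ratios turned for H3K27me3 (1.203) and H3K9me1 (0.956). Overlap with H3K27me3 differed by 0.514 points for H3K4ac, 1.67 for H3K9ac and -0.990 for H3K27ac, and H3K27me3 on H3K27ac by -1.02. H3K27me3 peaks in runs differed by 20.1 points, sites with H3K27me3 alone by 2.89, with acetylation alone by -6.10 and with both by 0.0534. With a minimum score of 100, ratios were 0.479 for H3K27ac density and 0.393 for its cover, 0.461 and 0.421 for H3K9me1, and 0.748 and 0.585 for H3K9me3, which turned. The overlap of H3K4ac with H3K27me3 differed by 4.76 points, that of H3K27ac by -2.11 and that of H3K27me3 with H3K27ac by -0.741, and sites with H3K27me3 alone by 12.8 and with both by 2.59.

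In the last 5 Mb of every chromosome, density ratios were 0.599 (H3K4ac), 0.579 (H3K9ac) and 0.557 (H3K27ac), and covered-share ratios 0.596 (H3K4ac), 0.553 (H3K9ac), 1.41 (H3K27me3) and 1.23 (H3K9me1, turned). The H3K27me3 width ratio turned to 1.128 and its overlap with H3K9ac to -0.0389 points. The acetylation-free stretch ratio was 1.51, and differences were 1.51 points for H3K27me3 in runs, -20.6 for sites with acetylation alone and 7.16 for sites with both. Against whole other chromosomes, density ratios were 0.865 (H3K4ac), 0.853 (H3K9ac), 0.863 (H3K27ac) and 1.303 (H3K27me3), covered-share ratios 0.871, 0.848, 0.776 (the acetylation marks) and 0.977 (H3K9me3, turned), and the stretch ratio 1.13. H3K27me3 overlap turned to -1.004 points with any acetylation, -0.769 with H3K4ac and -3.69 with H3K9ac, and was 1.54 with H3K27ac, while sites with acetylation alone differed by -9.74. Merging peaks closer than 200 bp turned the H3K9me3 width ratio to 1.03. The cause of these changes was not tested.

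No paired analysis was possible because each mark had 1 library. For the same reason the spread between replicates is unknown, and a difference between marks cannot be told apart from a difference in antibody or depth.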
